A study of Mus musculus with 22 samples.

Results

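The genes described here are 10 genes of MHC class I antigen presentation: H2-K1, H2-D1, B2m, Tap1, Tap2, Tapbp, Psmb8, Psmb9, Psmb10 and Nlrc5. They were taken by symbol from 24411 genes, and all 10 were found in both expression tables. RNA was sequenced in 22 libraries of primary neural stem cells from the adult mouse hippocampus, grown on a coated plate with EGF and bFGF. In the knockdown arm, cells received lentivirus at 10 particles per cell for 3 days, carrying a short hairpin RNA against Ogt (shOgt, n = 5) or the control hairpin shLuc (n = 6). In the inhibitor arm, cells received OSMI-1, an inhibitor of O-GlcNAc transferase, at 12.5 µM for 24 h (n = 5), or an equal volume of the solvent DMSO (vehicle, n = 6). Ogt encodes O-GlcNAc transferase, which attaches the sugar N-acetylglucosamine to nuclear and cytosolic proteins. Both knockdown groups were exposed to lentivirus, so the knockdown comparison has no group free of virus. The labels give no virus for the vehicle and OSMI-1 groups. The strain, age and sex of the mice are not given in the labels.

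MHC class I molecules show peptides from a cell's own proteins at its surface, where CD8+ T cells read them. Peptides are cut by the proteasome, in which interferon-inducible subunits can replace the constitutive ones, carried into the endoplasmic reticulum by the TAP transporter and loaded onto a heavy chain paired with β2-microglobulin. Neural cells usually hold few class I molecules, and interferons raise the whole pathway together, through interferon regulatory factors and through NLRC5, a class I transactivator.

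Each table was compared within itself, since the tables were normalized separately. Libraries held 7.22 to 13.2 M reads after lentivirus and 4.52 to 12.8 M reads in the vehicle and OSMI-1 groups, where OSMI-1 4 was the deepest. The targeted gene matched the labels in every library of the knockdown arm: Ogt was at 836 ± 89.8 normalized counts in shLuc (SD, n = 6) and 424 ± 63.9 in shOgt (SD, n = 5). On principal components of their arms, shLuc 1, shLuc 3, shOgt 3, vehicle 1 and OSMI-1 5 stood most apart from their groups. Others lay less far out, such as shLuc 2 at 22.9 and OSMI-1 6 at 20.8 on component 3 of their arms. Of 11 stem cell markers listed, Nes lay at 5591 ± 277 normalized counts in shLuc and 2892 ± 153 in vehicle (SD). Sox2 lay at 65.6 ± 21.3 and 61.8 ± 12.9. Other listed markers were low in shLuc, with Hes5 at 3.08 ± 2.59, Prom1 at 7.67 ± 7.10 and Gfap at 19.1 ± 4.33, or high, with Slc1a3 at 12303 ± 473. Markers listed for other lineages were also high in shLuc, with Olig1 at 18601 ± 1080 and Map2 at 3375 ± 257. The cell type is therefore taken from the labels. Whether replicates were separate cultures or animals is not stated in the labels, and the p-values then measure a spread between libraries that may be technical.

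Of the 10 genes, 7 lie on chromosome 17: Tapbp (33915899 to 33929292), H2-K1 (33996017 to 34000347), Psmb9 (34181987 to 34187764), Tap1 (34187553 to 34197225), Psmb8 (34197721 to 34201454), Tap2 (34203527 to 34216321) and H2-D1 (35262730 to 35267499), in GRCm38 coordinates. B2m lies on chromosome 2 (122147686 to 122153083), and Psmb10 (105935735 to 105938444) and Nlrc5 (94434356 to 94527272) lie on chromosome 8. Psmb9 runs from the opposite strand over the start of Tap1, and whether counting used strand is not given in the sources used here, so reads from that overlap may have been assigned to either gene. RefSeq promoter entries (GRCm38.p6) were matched for 8 of the 10 genes, Tap2 and Nlrc5 being the ones without. Each holds 250 bases before the start of that entry and 50 after it. For H2-D1, Tapbp, Psmb8 and Psmb9 the window lies inside the gene bounds given above. For these genes it therefore does not cover the bases before the outermost annotated start. The 250 bases before the start are shown for 4 genes: the heavy chain pair H2-K1 (the first of its RefSeq entries) and H2-D1, of which H2-D1 passed the test after knockdown and H2-K1 did not, B2m, which rose after knockdown, and Tap1, the only one of the 10 to rise in both arms. Capitals mark matches, on either strand, to the interferon-stimulated response element core (GAAA, 2 bases of any kind, GAAA), the shorter interferon regulatory factor core GAANNGAAA, the NF-κB consensus, the CCAAT box and TGACG, the core of the cyclic AMP response element.
H2-K1, chr17:34000348-34000597, minus strand: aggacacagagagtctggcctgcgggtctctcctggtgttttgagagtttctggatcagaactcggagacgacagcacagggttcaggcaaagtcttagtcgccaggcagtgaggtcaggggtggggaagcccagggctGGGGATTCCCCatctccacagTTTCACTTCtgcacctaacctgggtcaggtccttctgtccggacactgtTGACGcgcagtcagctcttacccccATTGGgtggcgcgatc
H2-D1, chr17:35262844-35263093, plus strand: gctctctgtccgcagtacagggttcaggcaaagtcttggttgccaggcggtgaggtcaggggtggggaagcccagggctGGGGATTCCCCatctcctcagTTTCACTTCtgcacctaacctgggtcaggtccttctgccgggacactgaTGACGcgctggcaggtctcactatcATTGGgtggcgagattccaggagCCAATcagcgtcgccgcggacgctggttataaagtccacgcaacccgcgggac
B2m, chr2:122147437-122147686, plus strand: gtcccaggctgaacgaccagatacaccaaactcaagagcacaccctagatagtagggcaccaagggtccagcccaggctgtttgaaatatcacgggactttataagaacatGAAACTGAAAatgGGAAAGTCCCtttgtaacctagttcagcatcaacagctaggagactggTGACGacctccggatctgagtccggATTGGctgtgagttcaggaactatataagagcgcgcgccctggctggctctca
Tap1, chr17:34187306-34187555, plus strand: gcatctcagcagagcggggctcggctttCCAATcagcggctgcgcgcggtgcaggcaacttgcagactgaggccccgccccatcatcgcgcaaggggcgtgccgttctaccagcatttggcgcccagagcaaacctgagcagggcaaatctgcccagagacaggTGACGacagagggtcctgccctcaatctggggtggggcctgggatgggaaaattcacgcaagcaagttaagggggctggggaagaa

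The H2-K1 and H2-D1 windows aligned over 239 bases, of which 211 (88.3%) were identical, and both held the shorter interferon core, the NF-κB consensus, 2 CCAAT boxes and 1 TGACG. The second CCAAT box of H2-K1 lies in the 50 bases after the start, which are not shown. B2m held the response element core, the NF-κB consensus, 1 CCAAT box and 2 TGACG matches, of which the second lies after the start. Tap1 held 1 CCAAT box and 1 TGACG, and its window shares 275 of 300 bases with that of Psmb9, read from the other strand. Tapbp held 2 CCAAT boxes, and no match to these motifs was found in the Psmb8 and Psmb10 windows. The Tapbp and Psmb8 windows lie inside their genes, so the bases before the outermost annotated start were not searched for them. Among 32851 promoter windows of the same length, 3.44% held the response element core, 7.52% GAANNGAAA, 8.46% the NF-κB consensus, 37.4% CCAAT and 20.8% TGACG. These matches describe the letters of the windows only; the motifs were chosen with the sequences and the expression results in view.

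After Ogt knockdown, 6 of the 10 genes rose (H2-D1, B2m, Tap1, Tap2, Tapbp and Psmb8) and none fell, at a limma adjusted p under 0.05. The other 4, H2-K1, Psmb9, Psmb10 and Nlrc5, did not pass the test. Among all 12136 genes tested, 15.4% rose and 16.4% fell. The median log2 fold change was 0.42 over the 10 genes and 0.01 over all genes tested. No member fell at an unadjusted p under 0.05 either, nor with edgeR or DESeq2. The authors' deposited table calls the same 6 genes. The 10 genes summed to 5685 to 6504 normalized counts in shLuc and to 7590 to 8427 in shOgt, with no overlap. In bulk RNA, more cells of one type and more RNA per cell cannot be told apart.

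**Figure D1:**
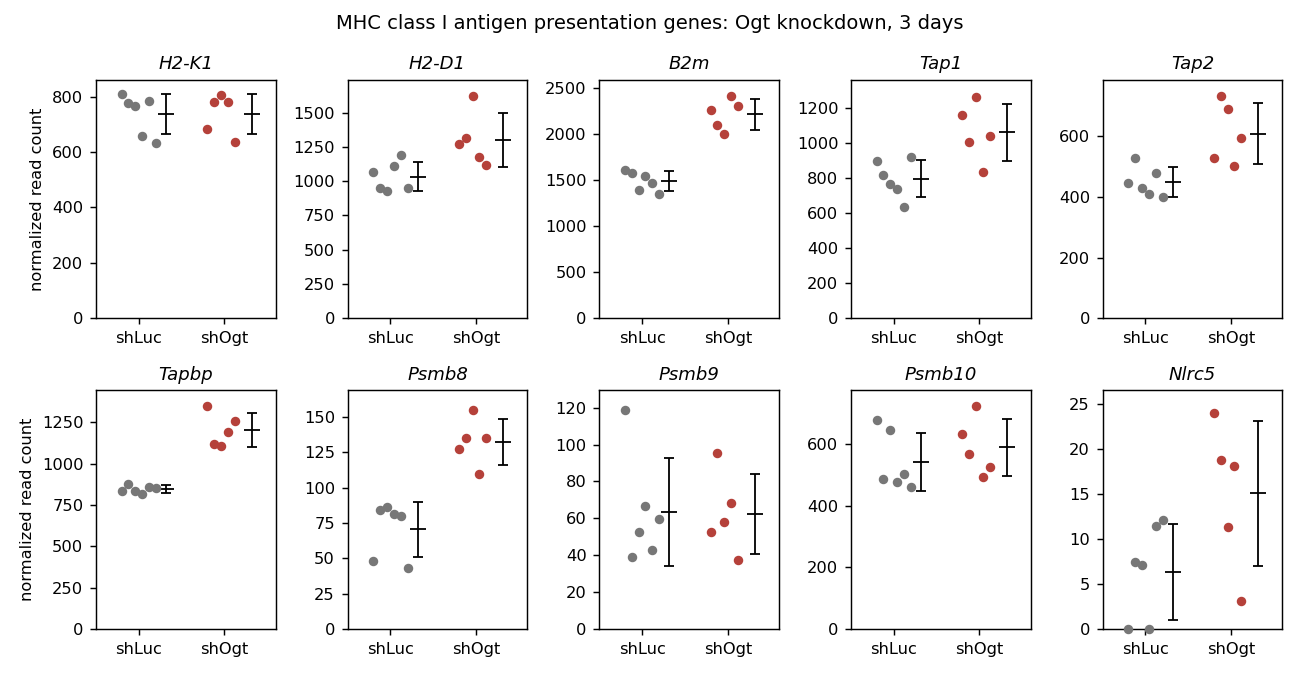
Normalized read counts (linear axes from 0) of the 10 genes in each shLuc (grey, n = 6) and shOgt (red, n = 5) library, with the mean and SD beside the points. For B2m, Tapbp and Psmb8 every shOgt library lies above every shLuc library, while the H2-K1 means are 737 and 738.

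H2-K1 and H2-D1 encode the classical class I heavy chains, the subunits that bind the peptide. H2-K1 lay between 631 and 809 normalized counts in shLuc (median 772) and at 684, 779, 805, 782 and 638 in shOgt 1, 2, 3, 5 and 6. The groups overlapped fully, and the log2 fold change was 0.00 ± 0.10 (SE, limma adjusted p = 0.995), with a 95% interval of -0.20 to 0.20. H2-D1 lay between 926 and 1191 in shLuc (median 1008) and at 1274, 1312, 1622, 1176 and 1117 in shOgt. Here 3 of the 5 shOgt libraries lay above every shLuc library and shOgt 3 was the highest. H2-D1 rose by a log2 fold change of 0.33 ± 0.10 (SE, limma adjusted p = 0.0147). Without shLuc 1, shLuc 3 and shOgt 3, the libraries that stood apart, that value was 0.22 with an adjusted p of 0.0722, which is no longer a call. Taken as H2-D1 over H2-K1 within each library, the log2 ratio was 0.48 ± 0.19 in shLuc (SD, n = 6) and 0.81 ± 0.16 in shOgt (SD, n = 5). This difference of 0.33 had an exact permutation p of 0.0216 (two-sided), or 0.0866 adjusted over 4 such pairs chosen after the values were seen, and so did not pass. Of the 100-base windows of H2-D1, 4.64% also occur in other genes, among them H2-T23, H2-Q6 and H2-Q7, so some H2-D1 reads could have been assigned to or from those genes; for H2-K1 the share was 0%.

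B2m encodes β2-microglobulin, the light chain that every classical class I molecule needs to fold and reach the surface. It lay between 1352 and 1611 normalized counts in shLuc (median 1505) and at 2259.9, 2097, 1995, 2412 and 2302 in shOgt. Every shOgt library lay above every shLuc library, a pattern that 3 of the 10 genes showed (B2m, Tapbp and Psmb8) and that 8.83% of all genes tested showed in this direction. The rise from 1489 ± 105 (SD, n = 6) to 2213 ± 166 (SD, n = 5) was a log2 fold change of 0.57 ± 0.07 (SE, limma adjusted p = 7.9e-06).

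Tap1 and Tap2 encode the paired chains of the peptide transporter, and Tapbp encodes tapasin, which bridges the transporter to the empty heavy chain. Tap1 lay between 637 and 922 normalized counts in shLuc (median 792) and at 1162, 1003, 1265, 836 and 1041 in shOgt. Only shOgt 5 fell within the shLuc range, and the log2 fold change was 0.41 ± 0.11 (SE, limma adjusted p = 0.0077). Tap2 lay between 399 and 528 in shLuc (median 438) and at 527, 732, 689, 503 and 593 in shOgt. Its groups overlapped at shOgt 1 and shOgt 5, and the log2 fold change was 0.43 ± 0.11 (SE, limma adjusted p = 0.0067). Tapbp had the tightest controls, between 813 and 874 (median 845), and lay at 1347, 1119, 1104, 1192 and 1255 in shOgt. No shOgt library overlapped them, and the log2 fold change was 0.51 ± 0.08 (SE, limma adjusted p = 4.5e-05).

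Psmb8, Psmb9 and Psmb10 encode the inducible catalytic subunits of the immunoproteasome, which take the places of Psmb5, Psmb6 and Psmb7. Psmb8 lay between 43.3 and 86.6 normalized counts in shLuc (median 80.6) and at 127, 135, 155, 109.9 and 135 in shOgt. The groups did not overlap, and the rise from 70.6 ± 19.4 (SD, n = 6) to 133 ± 16.4 (SD, n = 5) was the largest among the 6 genes that rose, at a log2 fold change of 0.94 ± 0.21 (SE, limma adjusted p = 0.0019). Psmb9, which starts next to Tap1, lay between 39.2 and 119 in shLuc (median 56.1) and at 52.5, 95.7, 57.9, 68.3 and 37.5 in shOgt. Its libraries were mixed and its log2 fold change was 0.01 ± 0.29, with a wide 95% interval of -0.59 to 0.62. The within-library Tap1 over Psmb9 ratio differed by 0.40 on the log2 scale between the groups (exact permutation p = 0.238, two-sided), so a difference between these neighbours was not shown. Psmb10 lay between 461 and 677 in shLuc (median 495) and at 633, 569, 724, 494 and 527 in shOgt. The groups overlapped, and the log2 fold change was 0.13 ± 0.12 (limma adjusted p = 0.48).

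Nlrc5 encodes the transactivator that binds class I promoters through other factors. It was the least abundant of the 10 genes, with 41 reads over 6 shLuc libraries and 74 over 5 shOgt libraries. Values lay between 0 and 12.1 normalized counts in shLuc (median 7.27) and at 24.0, 18.7, 11.3, 18.1 and 3.12 in shOgt. Of the shOgt libraries, 3 lay above every shLuc library. The log2 fold change of 1.53 ± 0.79 (SE, limma adjusted p = 0.15) had an interval of -0.12 to 3.19, so no difference was detectable at this depth. Nlrc5 held 10 reads or more in 2 shLuc and 3 shOgt libraries, which was enough to enter the test.

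After 24 h of OSMI-1, 1 of the 10 genes rose (Tap1) and none fell, with 9 tested and Nlrc5 below the filter. Among all 11349 genes tested, 11.6% rose and 13.2% fell. The median log2 fold change of the 9 tested genes was 0.10, beside 0.00 over all genes tested. Over the same 9 genes the knockdown median was 0.41. No member fell at an unadjusted p under 0.05, with edgeR or with DESeq2, and the authors' deposited table also calls Tap1 alone. The 10 genes summed to 2611 to 2965 normalized counts in vehicle and 2853 to 3250 in OSMI-1, which overlap. The Ogt message itself was at 455 ± 37.6 in vehicle (SD, n = 6) and 599.9 ± 42.5 in OSMI-1 (SD, n = 5).

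**Figure D2:**
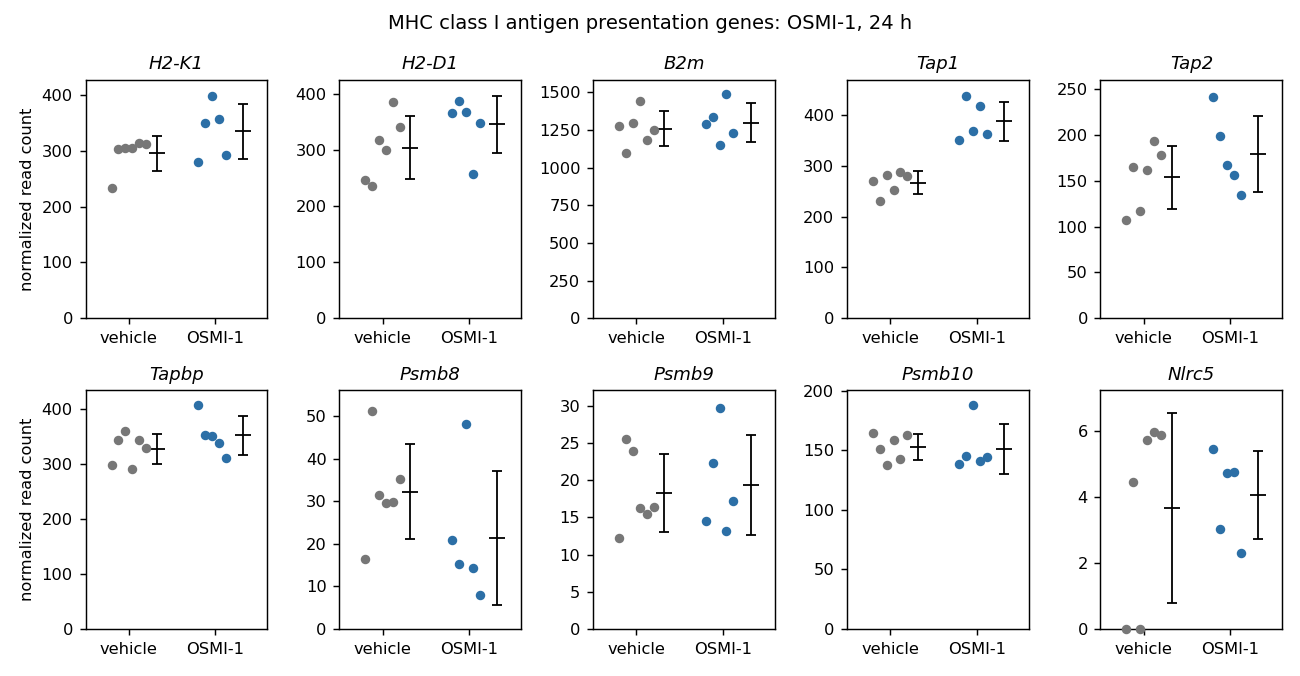
Normalized read counts (linear axes from 0) of the 10 genes in each vehicle (grey, n = 6) and OSMI-1 (blue, n = 5) library, with the mean and SD beside the points. Tap1 is the only panel in which every OSMI-1 library lies above every vehicle library.

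Tap1 lay between 230.1 and 288 normalized counts in vehicle (median 275) and at 350.0, 437, 369, 419 and 363 in OSMI-1 1, 2, 4, 5 and 6. No OSMI-1 library overlapped the vehicle range, which 6.27% of all genes tested showed in this direction and 1 of the 9 genes here. The rise from 267 ± 22.1 (SD, n = 6) to 388 ± 37.9 (SD, n = 5) was a log2 fold change of 0.53 ± 0.10 (SE, limma adjusted p = 0.00023). Tap2, the other chain of the transporter, lay between 107 and 193 in vehicle (median 164) and at 242, 199, 167, 156 and 135 in OSMI-1. Its groups overlapped, with OSMI-1 1 and OSMI-1 2 above all vehicle libraries, and the log2 fold change was 0.23 ± 0.16 (limma adjusted p = 0.345). Tapbp lay between 289.7 and 359 in vehicle (median 336) and at 406, 353, 349, 338 and 310.4 in OSMI-1. Its log2 fold change was 0.10 ± 0.09 (limma adjusted p = 0.48), with only OSMI-1 1 above the vehicle range.

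The heavy chains did not pass the test under OSMI-1. H2-K1 lay between 233 and 314 normalized counts in vehicle (median 306) and at 279.8, 351, 399, 357 and 292 in OSMI-1, a log2 fold change of 0.18 ± 0.11 (limma adjusted p = 0.26). Vehicle 1 was far below the other vehicle libraries, and 3 OSMI-1 libraries lay above all of them. H2-D1 lay between 236 and 385 in vehicle (median 308) and at 366, 388, 369, 258 and 348 in OSMI-1, a log2 fold change of 0.19 ± 0.13 (limma adjusted p = 0.30). The within-library H2-D1 over H2-K1 ratio differed by 0.01 (exact permutation p = 0.946, two-sided). B2m, which rose after knockdown, lay between 1101 and 1446 in vehicle (median 1263) and at 1289, 1337, 1150.3, 1489 and 1233 in OSMI-1. Its log2 fold change was 0.04 ± 0.08, with an interval of -0.12 to 0.21.

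The 3 inducible proteasome subunits showed no call under OSMI-1 over all libraries. Psmb8 lay between 16.3 and 51.1 normalized counts in vehicle (median 30.7) and at 21.0, 15.2, 48.2, 14.3 and 8.02 in OSMI-1. All OSMI-1 libraries but OSMI-1 4, the deepest one, lay below the vehicle median, and the log2 fold change was -0.74 ± 0.36 (SE, limma adjusted p = 0.14). Without OSMI-1 4 it was -1.09 with a limma adjusted p of 0.0218, so that 1 library decides the call. Psmb9 lay between 12.3 and 25.6 in vehicle (median 16.4) and at 14.6, 22.3, 29.7, 13.1 and 17.2 in OSMI-1, a log2 fold change of 0.06 ± 0.31. Psmb10 lay between 138 and 164 in vehicle (median 155) and at 139, 145, 188, 141 and 144 in OSMI-1, a log2 fold change of -0.02 ± 0.12. OSMI-1 4 was also the highest OSMI-1 library for both of these subunits. Nlrc5 had 20 reads in vehicle and 26 in OSMI-1 in all and was not tested; its values were 3.67 ± 2.90 normalized counts in vehicle (SD, n = 6) and 4.06 ± 1.33 in OSMI-1 (SD, n = 5).

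The difference between the arms was tested directly, as the knockdown log2 fold change minus the OSMI-1 log2 fold change in 1 limma fit over all 4 groups. For 3 of the 9 genes it passed the test, each with the higher value after knockdown: B2m by 0.53 ± 0.11 (SE, limma adjusted p = 0.00047), Tapbp by 0.40 ± 0.12 (adjusted p = 0.0109) and Psmb8 by 1.69 ± 0.43 (adjusted p = 0.0046). None passed in the other direction. Among 11269 genes tested in both arms, 11.5% passed with the higher value after knockdown and 11.4% in the other. For Tap1 the difference was -0.12, with a 95% interval of -0.42 to 0.18 (adjusted p = 0.60), so a difference was not shown and one of either sign within that interval cannot be told apart. For Tap2 it was 0.20 (interval -0.22 to 0.63), for H2-D1 0.14 (-0.21 to 0.48), for H2-K1 -0.18 (-0.47 to 0.12), for Psmb10 0.15 (-0.19 to 0.49) and for Psmb9 -0.05 (-0.90 to 0.80). The arms also differ in agent, time, virus and the normalization of their tables, which cannot be told apart here.

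**Figure D3:**
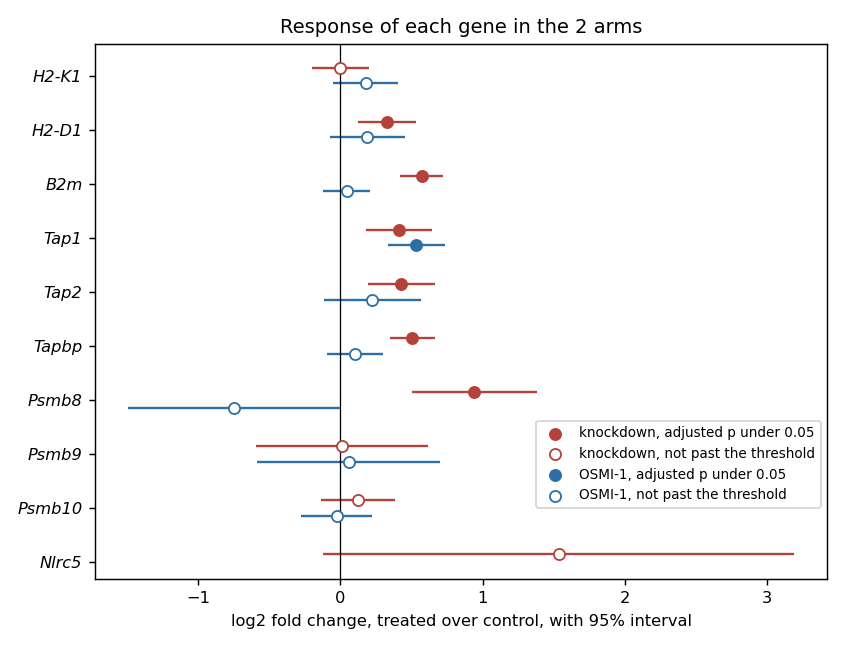
Log2 fold change, treated over control, of each gene after Ogt knockdown (red) and OSMI-1 (blue), with 95% limma intervals; filled points have an adjusted p under 0.05 and Nlrc5 was tested in the knockdown arm alone. Tap1 is filled in both colours, and Psmb8 lies at 0.94 after knockdown and at -0.74 after OSMI-1.

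The inducible subunits were also set against the constitutive subunits they replace, as a percent within each library, which no scaling between libraries can change. Psmb8 was at 1.63% ± 0.516 of Psmb5 in shLuc (SD, n = 6), from 0.905 to 2.04%, and at 3.22% ± 0.336 in shOgt (SD, n = 5), from 2.71 to 3.58%. The groups did not overlap: the ratio rose by 1.03 on the log2 scale (exact permutation test, two-sided, p = 0.0022, the smallest that 462 splits allow, 0.0065 adjusted over 6 ratios). Psmb10 over Psmb7 rose from 22.9% ± 2.36 to 33.5% ± 5.46, by 0.54 on the log2 scale, again without overlap (exact permutation p = 0.0022, adjusted 0.0065). In that ratio the constitutive partner moved: Psmb7 fell from 2357 ± 206 to 1764 ± 84.1 normalized counts (log2 fold change -0.41 ± 0.07, limma adjusted p = 0.00019), while Psmb10 alone did not pass. Psmb9 over Psmb6 was at 0.609% ± 0.195 in shLuc and 0.648% ± 0.207 in shOgt (exact permutation p = 0.716, adjusted 0.914).

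Under OSMI-1 none of the 3 ratios passed. Psmb8 over Psmb5 was at 1.91% ± 0.637 in vehicle (SD, n = 6) and 1.28% ± 0.908 in OSMI-1 (SD, n = 5), with an exact permutation p of 0.128 (adjusted 0.255). Without OSMI-1 4 the log2 difference went from -0.74 to -1.07 and passed (exact permutation, adjusted p = 0.0286). Psmb9 over Psmb6 was at 0.715% ± 0.235 and 0.677% ± 0.216, and Psmb10 over Psmb7 at 11.7% ± 1.00 and 11.8% ± 2.00.

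**Figure D4:**
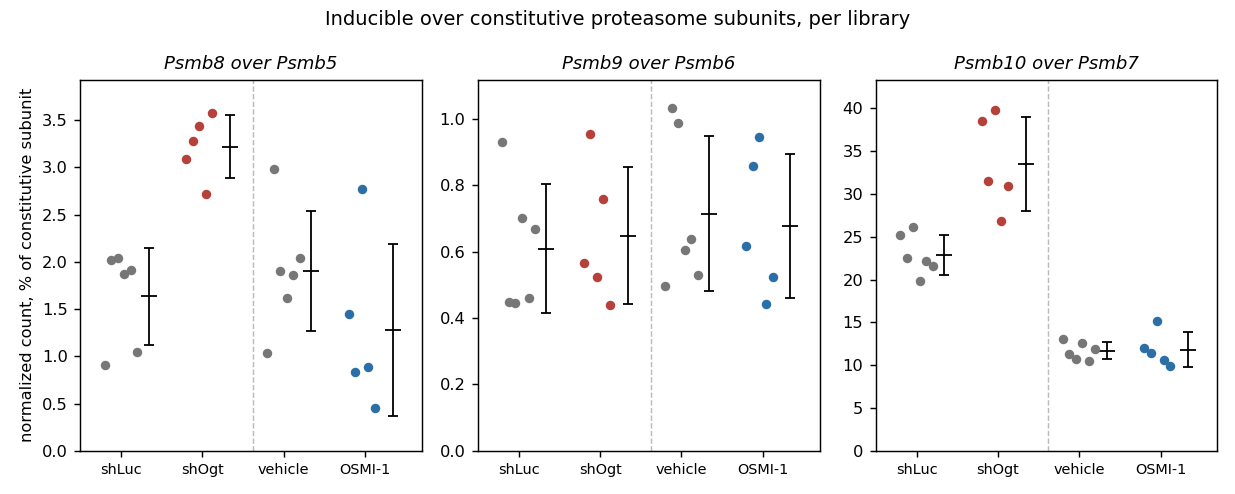
Normalized count of each inducible proteasome subunit as a percent of its constitutive partner (linear axes from 0), per library, with mean and SD; the dashed line parts the arms. Psmb8 over Psmb5 and Psmb10 over Psmb7 separate shOgt from shLuc without overlap, and Psmb9 over Psmb6 does not.

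Levels between genes were compared per kilobase of transcript (normalized counts divided by the length of the longest annotated coding transcript). Which transcript the cells expressed was not checked, so the order of genes depends on that choice. In shLuc, B2m was by far the highest at 1731 ± 122 per kb (SD, n = 6). H2-D1 at 491 ± 50.6, H2-K1 at 455 ± 45.5 and Psmb10 at 413 ± 71.7 followed, and their ranges overlapped between neighbours. Tapbp at 292 ± 7.68 and Tap1 at 269 ± 35.9 overlapped each other, with Tap2 below at 130.4 ± 13.9. The inducible subunits Psmb9 at 46.8 ± 21.6 and Psmb8 at 43.3 ± 11.9 overlapped, and Nlrc5 was lowest at 0.837 ± 0.700. In vehicle the order was B2m at 1465 ± 135 per kb, then H2-K1 at 183 ± 19.2, H2-D1 at 145 ± 27.1, Psmb10 at 117 ± 8.29 and Tapbp at 113 ± 9.51, of which each neighbouring pair from H2-K1 to Tapbp overlapped. Tap1 at 90.5 ± 7.49, Tap2 at 44.7 ± 9.95, Psmb8 at 19.8 ± 6.91, Psmb9 at 13.6 ± 3.86 and Nlrc5 at 0.484 ± 0.382 followed, Tap2 overlapping Psmb8 at the edge of its range.

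The genes around the pathway were read from lists chosen for their roles. Over all genes tested, 15.4% rose and 16.4% fell after knockdown, and 11.6% rose and 13.2% fell under OSMI-1. Of 11 other class I and class I-like heavy chain genes tested after knockdown (of 21 listed), 3 rose and none fell. The nonclassical heavy chain gene H2-T23, the mouse Qa-1b gene, rose from 124.7 ± 19.5 to 336 ± 61.7 normalized counts (log2 fold change 1.42 ± 0.15, limma adjusted p = 9.6e-07). Cd1d1, whose product presents lipids, rose from 744 ± 68.7 to 1167 ± 87.4, by 0.65 ± 0.09. Fcgrt, the heavy chain of the neonatal Fc receptor, rose from 280.5 ± 47.7 to 426 ± 66.6, by 0.60 ± 0.13. All 3 products pair with β2-microglobulin. Under OSMI-1 none of the 9 tested passed (limma); at an unadjusted p under 0.05, 1 was higher and 1 lower, edgeR called 0 and DESeq2 called 1 higher. H2-T23 shares some 100-base windows with H2-D1. The arms differed for H2-T23 by 0.91 (limma adjusted p = 0.0046) and for Cd1d1 by 0.90 (adjusted p = 1.4e-06).

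Of 6 other genes of peptide loading and trimming, 1 rose after knockdown and 2 fell, beside 15.4% and 16.4% of all genes tested. The endoplasmic reticulum chaperone genes Calr and Canx fell by 0.24 and 0.29 on the log2 scale, against the direction of Tapbp, and Lnpep, an aminopeptidase gene, rose by 0.68 ± 0.21 (limma adjusted p = 0.0161). Under OSMI-1 Canx rose by 0.27 and Calr fell by 0.23. Of 5 other immunoproteasome and activator genes, Psme1, a subunit of the interferon-inducible proteasome cap PA28, rose after knockdown from 627 ± 84.4 to 874 ± 109.7 normalized counts (0.48 ± 0.11), and Psme3, of a nuclear cap, fell from 189 ± 11.4 to 112 ± 14.4 (log2 fold change -0.75 ± 0.14). Under OSMI-1, Psme4 rose by 0.41, and none fell by limma, edgeR or DESeq2 or at an unadjusted p under 0.05. Among 6 cytosolic peptidase genes, Npepps and Thop1 fell after knockdown, by 0.32 and 0.31 on the log2 scale, and under OSMI-1 Npepps rose by 0.31 while Thop1, Lap3 and Blmh fell. Of the 19 alternatives tried, the Npepps call after knockdown was lost under 5 and the Lnpep call under 2, and under OSMI-1 the Calr call was lost under 9, Lap3 under 10, Psme4 under 7 and Thop1 under 1.

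Of 20 factors that act on class I promoters, besides Nlrc5, 2 rose after knockdown and 1 fell. Over all genes tested 15.4% rose and 16.4% fell, so this list was called no more often than genes at large. The shares over all genes under OSMI-1 were 11.6% and 13.2%. Irf1, an interferon regulatory factor, rose from 258 ± 66.6 to 364 ± 40.0 normalized counts (log2 fold change 0.52 ± 0.15, limma adjusted p = 0.0103), and Irf9, part of the complex that answers type I interferon, rose from 64.0 ± 19.5 to 136 ± 26.8 (1.11 ± 0.22). Nfyc, of the CCAAT-binding complex, fell by 0.46 on the log2 scale. Under OSMI-1, 3 of 19 rose (Rfx5, Stat2 and Nfkb2) and 4 fell (Nfyb, Nfyc, Atf1 and Irf1), with the call lost under 10 of the 19 alternatives for Stat2, 11 for Atf1, 4 for Rfx5 and 1 for Nfyc. Irf1 went from 99.9 ± 6.41 to 72.9 ± 21.5, a call lost under 11 of 19 alternatives. The Irf1 log2 fold changes differed by 1.01 between the arms (limma adjusted p = 0.0012). A list of 13 genes held interferon ligands, receptors and kinases with inhibitors such as Socs3. After knockdown 9 of them were tested, and 1 was at 0 in every library of that arm. Of the 9, 5 rose and none fell: Ifnar1, Ifnar2, Ifngr1, Ifngr2 and Jak1, by 0.28 to 0.46 on the log2 scale. The Ifnar2 call was lost under 2 and the Ifngr1 call under 1 of 19 alternatives. Of 20 interferon-stimulated genes tested, of 25 listed, 15 rose and none fell, beside 15.4% and 16.4% of all genes tested. Cxcl10 and Gbp2 rose by 2.74 and 1.93, or by 2.25 and 1.75 with a pseudocount of 5. The filter can admit a gene near 0 in shLuc through its shOgt reads alone, and such a gene can only rise. Summed over all 25 listed genes, the level ran from 943 to 1071 in shLuc and from 1997 to 2368 in shOgt. The Bst2 call among the 15 was lost under 10 of 19 alternatives. No gene of the heavy chain, receptor or interferon-stimulated lists fell after knockdown at an unadjusted p under 0.05, with edgeR or with DESeq2. Under OSMI-1, Ifngr2 rose by 0.46 and Socs3, an inhibitor of cytokine signalling, fell by 1.16 on the log2 scale, a call lost under 12 of 19 alternatives. Only 10 interferon-stimulated genes passed the filter there, so the counts of the arms are over different sets. None of the 10 rose by limma, edgeR or DESeq2 or at an unadjusted p under 0.05, and Ifit2 fell by 1.22 on the log2 scale.

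**Figure D5:**
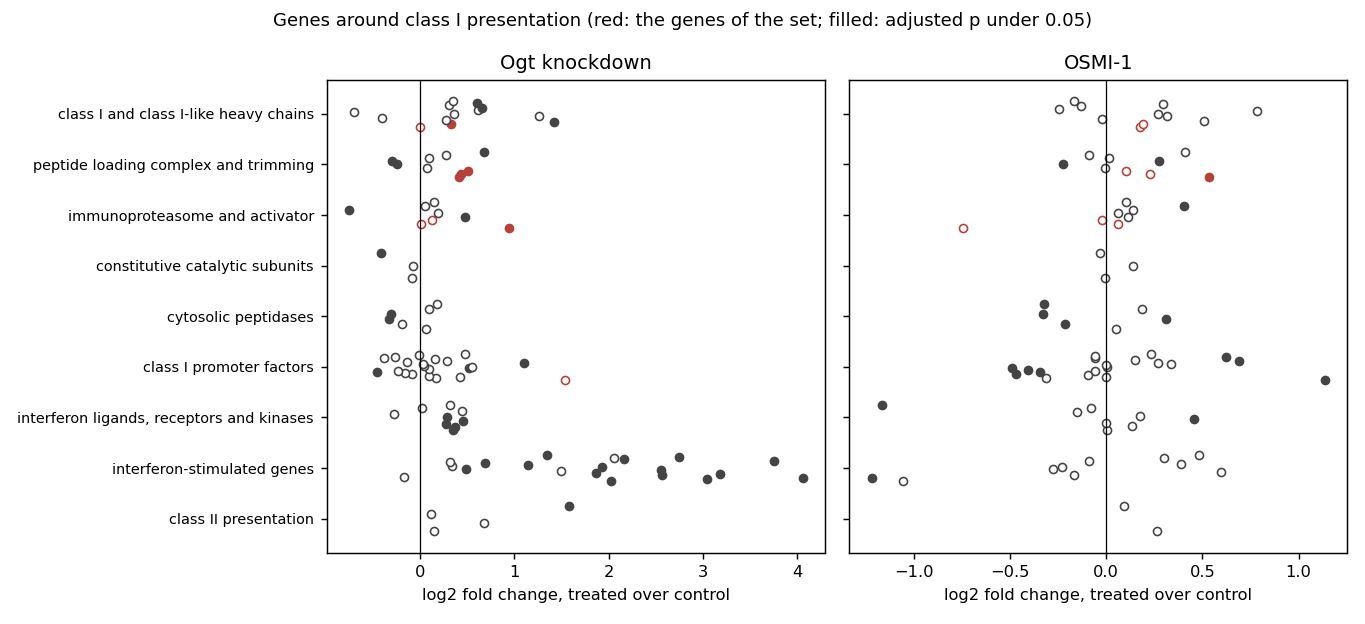
Log2 fold change, treated over control, of each tested gene by list, after knockdown (left) and OSMI-1 (right; the horizontal scales differ). Red points are the 10 genes and filled points have a limma adjusted p under 0.05; the interferon-stimulated genes reach beyond 4 after knockdown, while the 10 genes stay between 0.00 and 1.53.

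Class I genes are also abundant in microglia and vessel cells, so markers of those cells were read. Of 15 microglia and immune markers, 2 were tested after knockdown and neither passed. Lyz2 was at 11.4 ± 7.41 normalized counts in shLuc and 23.8 ± 9.88 in shOgt (log2 fold change 1.13 ± 0.46, limma adjusted p = 0.0675), and Cd68 at 11.6 ± 6.88 and 18.4 ± 8.47 (0.73 ± 0.54, adjusted p = 0.33). Csf1r, too low for the test, was at 1.57 ± 2.85 and 3.58 ± 4.41. A further 4 were at 0 in every library of that arm, among them Cx3cr1 and C1qa, and Ptprc, the gene of the pan-leukocyte antigen CD45, was at 0.648 ± 0.835 normalized counts in shLuc and 0.490 ± 0.684 in shOgt. Their summed level ran from 13.99 to 54.3 in shLuc and from 42.3 to 84.3 in shOgt. The 12 vessel and fibroblast markers summed to 19.9 to 46.5 in shLuc and 27.7 to 112 in shOgt, with 1 of 2 tested rising (Tek). Under OSMI-1 the immune markers summed to 9.56 to 26.2 in vehicle and 14.3 to 27.5 in OSMI-1, with none tested. Markers of the neural and ependymal lineages moved as well. Over all genes tested, 15.4% rose and 16.4% fell after knockdown, and 11.6% and 13.2% under OSMI-1. After knockdown the choroid plexus marker Folr1 rose from 42.1 ± 17.7 to 107 ± 12.9 without overlap (limma adjusted p = 0.0015), the other 2 tested of 7 ependymal and choroid plexus markers not passing. Of the oligodendrocyte-lineage markers, 3 of 4 tested fell, among them Olig1 from 18601 ± 1080.0 to 10256 ± 586. Among the stem cell markers, Sox9, Slc1a3 and Pax6 fell and Vim rose. Of the neuron markers 1 of 4 rose and 2 fell, and of the astrocyte markers 2 of 5 fell. Under OSMI-1, 4 of 8 stem cell markers fell and 1 rose, 1 of 2 ependymal markers fell (Foxj1), 1 of 4 neuron markers rose and 2 fell, 3 of 5 astrocyte markers rose, and of 5 oligodendrocyte-lineage markers 1 rose and 1 fell. Folr1, too low for the test under OSMI-1, was lower there without overlap, at 12.0 ± 2.51 in vehicle and 2.94 ± 3.04 in OSMI-1. The part of these markers in the results was not tested.

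The profile of the 10 genes was also compared with every other tested gene, as Pearson's r with the mean standardized profile over the 11 libraries of an arm. In the knockdown arm Maged1 (r = 0.97), Trf (0.97), Upp1 (0.96), Pipox (0.96) and Ccnd2 (0.96) were most alike. In the inhibitor arm, over the 9 tested genes, Sdccag3 (0.93), Tmem127 (0.91), Nudt18 (0.90), Ccnl2 (0.90) and Tango2 (0.90) were. The 2 sets share no gene. These values describe 11 libraries that share their treatment and were picked as the highest among all genes tested.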

How the data were processed

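Poly(A) RNA-seq was made from the 22 libraries, as strand-specific libraries per the labels' protocols, but the design text gives the Smart-Seq2 protocol, which does not mark strand; which one applies was not settled. The submitters' processing notes name STAR, RSEM, DESeq2 and the human build hg38, although the tables hold mouse symbols; versions, strand setting and mouse annotation are not given in the sources used here. Per the file headers, the authors deposited 1 table per arm with normalized counts (a signal: counts divided by a size factor), their log2 fold change with its error, a Wald statistic (a score) and p-values. The deposited fold change of the inhibitor table is vehicle over OSMI-1; all values here are treated over control. Values were whole multiples of 1 step per library within 0.001, so reads were recovered.

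Each arm was tested with limma 3.58.1 (R 4.3.3) with its trend option on log2(normalized count + 1). On this scale the changes of low genes can come out larger or smaller than in the authors' deposited values. Nlrc5 after knockdown was at 1.53 here and 1.25 there, and Psmb8 under OSMI-1 at -0.74 and -0.54. Psmb9 under OSMI-1 was at 0.06 here and 0.12 there. Genes passed edgeR's filterByExpr (version 4.0.16; minimum count 10, total 15). P-values were two-sided, adjusted by Benjamini and Hochberg over all genes tested and called at 0.05. The arm difference came from 1 limma fit over 4 groups. Ratios were tested with exact permutation tests. The code was tested on simulated data. Alternatives were edgeR's quasi-likelihood test, DESeq2 1.42.0 on recovered reads, pseudocounts 0.5 and 5, no filter, TMM scaling, a replicate block and leaving out libraries. Gene positions and lengths came from GENCODE M21; window alignment used Biopython 1.88. Named genes were the 10 members in every library, listed pathway genes that passed or were abundant, and the 5 most alike per arm. The members and lists were chosen with earlier results of these data known.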

Additional observations from a re-analysis of the deposited data

Results flagged for a closer look

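For 3 genes the response differed between the arms in a direct test. The knockdown log2 fold change was higher than the OSMI-1 one by 0.53 for B2m, by 0.40 for Tapbp and by 1.69 for Psmb8. The B2m and Tapbp differences passed under all 25 alternatives, with values of 0.48 to 0.58 and 0.36 to 0.46, and the Psmb8 difference ran from 1.37 to 2.03 and also passed in all 25.

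A single library stood far from its group for 3 genes, out of 40 sets of one gene in one group. Chance gives such a library in about 1 in 20, so 3 of 40 is close to what chance gives. Psmb9 in shLuc 1 was at 119 normalized counts with the next library at 66.9, a gap of 0.65 of the group's range. H2-K1 in vehicle 1 was the lowest at 233, with the next at 303, a gap of 0.87 of the range. Psmb10 in OSMI-1 4, the deepest library of its arm, was at 188 with the next at 145, a gap of 0.87 of the range.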

How the results depend on the processing

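The 6 knockdown calls kept their direction and their side of the threshold under all 19 alternatives, except H2-D1 without shLuc 1, shLuc 3 and shOgt 3 (0.22, adjusted p = 0.0722), which left 5 genes that rose; that alternative was chosen after seeing the data. Tap1 under OSMI-1 rose under all 19 (0.49 to 0.57). The count of genes that fell under OSMI-1 was 0 to 1 with 1 library left out, and 1 without vehicle 1, OSMI-1 4 and OSMI-1 5, where Psmb8 was at -1.28. That set was also chosen after seeing the data. OSMI-1 4 was not among the libraries that stood most apart on principal components, and it held the highest Psmb8 value of its group. The replicate block left 6 and 1 genes that rose. Same-numbered libraries correlated at -0.10 to 0.16, and 1 of 10 correlated best with its own number. On principal component 3 of the knockdown arm, shLuc 3 and shOgt 3 lay together (-33.6 and -34.0). The shLuc and shOgt libraries numbered 1 (-1.27 and 0.44), 5 (5.55 and 5.45) and 6 (12.9 and 19.5) were also near each other. Those numbered 2 were not (22.9 and 1.78). Whether the numbers pair the libraries was not settled. Values near 0 turned sign. H2-K1 after knockdown was at -0.0032 with edgeR, -0.00088 with TMM scaling and -0.031 with the block, and Psmb9 at -0.022 with edgeR and -0.020 with DESeq2. Without the 3 libraries, H2-K1 under OSMI-1 was at -0.010 and Psmb9 at -0.10. With 1 library left out, log2 values ran from -0.043 to 0.052 (H2-K1) and -0.16 to 0.21 (Psmb9) after knockdown; from -0.10 to 0.18 (Psmb9), -0.10 to 0.0055 (Psmb10) and -0.0060 to 0.087 (B2m) under OSMI-1; and from -0.22 to 0.15 for the Psmb9 arm difference. Ratios ran from -0.059 to 0.22 (Psmb9 over Psmb6, knockdown), -0.20 to 0.054 (the same, OSMI-1), -0.084 to 0.066 (Psmb10 over Psmb7, OSMI-1), -1.07 to -0.45 (Psmb8 over Psmb5, OSMI-1) and -0.074 to 0.14 (H2-D1 over H2-K1, OSMI-1). Depth limits Nlrc5, with 41 and 74 reads by group after lentivirus and 20 and 26 in the other arm. The causes were not tested.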

Other observations

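Of 10 class II presentation genes, 4 were tested after knockdown and 1 rose: H2-DMb1, of the class II peptide exchange factor, went from 15.01 ± 8.02 normalized counts in shLuc (SD, n = 6) to 46.0 ± 24.1 in shOgt (SD, n = 5; log2 fold change 1.58 ± 0.46, limma adjusted p = 0.0119). Its call was lost under 1 of 19 alternatives. Over all genes tested, 15.4% rose after knockdown. Under OSMI-1, 2 class II genes were tested and neither passed.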
